A study of Mus musculus with 12 samples.

Results

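The genes described here are 10 members of the BCL2 family, which regulates the mitochondrial route to apoptosis. They were chosen by gene symbol, without a cutoff on measured values but with earlier results of these data known. All 10 were found among the 25238 genes of the deposited count table. They comprise 4 guardians (Bcl2, Bcl2l1, Bcl2l2 and Mcl1), 3 effectors (Bax, Bak1 and Bok) and 3 BH3-only genes (Bad, Bbc3 and Bcl2l11). All 10 passed the filter on low counts and were tested in each of the 3 comparisons.

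The guardian proteins hold cells alive by binding their pro-apoptotic relatives at the outer mitochondrial membrane. When BAX or BAK is released or activated, it oligomerizes and permeabilizes that membrane, cytochrome c leaves the mitochondrion, and the apoptosome activates caspases. BH3-only proteins sense stress, loss of trophic support or DNA damage and either neutralize the guardians or activate the effectors. In brain the balance among these classes bears on whether injured neurons and glia survive ischemia.

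RNA-seq was performed on cortex of 12 mice, with 1 library per mouse and 4 mice in each group. ISP mice underwent middle cerebral artery occlusion and were then given intracellular sigma peptide, a membrane-permeable peptide directed at the proteoglycan receptor PTPσ, at 1 µg/g/day. Veh mice underwent the same surgery and received 5% DMSO in saline, although the results text of the study names a scrambled peptide for its comparison mice. Dosing began on day 1 after stroke and tissue was taken at day 14. The study's methods describe the transient occlusion, of the left artery, in young adult male mice, either C57BL/6J or Nestin-creER-Ai9, and name neither strain for the RNA-seq cohort. The remaining 4 mice are labelled control, and no surgery, treatment or day is given for them in the sources used here, while their titles also name peri-infarct cortex. Tissue came from micro-punches of frozen sensorimotor and motor cortex, so that neurons, glia, vessels and infiltrating cells were measured together. In such bulk tissue, fewer cells of a type and less RNA per cell cannot be told apart.

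Total counts per library were 19325979 to 28685864 in ISP mice, 17442711 to 24706638 in Veh mice and 21322702 to 29845629 in control mice. All 12 neuronal markers were detected in every library, with summed levels of 11957.4 to 14537.3 CPM in ISP mice, 13674.9 to 15418.0 CPM in Veh mice and 14735.9 to 15104.5 CPM in control mice, where CPM is a count scaled to library size after TMM normalization. ISP 14 and ISP 18 stood apart from the other libraries. Their mean log2 level of 12 markers of activated microglia and macrophages was 3.35 and 3.32 above the mean of the 12 libraries, against 0.30 in ISP 12, -0.33 in ISP 16, -1.21 to 1.53 in Veh mice and -1.92 to -1.02 in control mice. The summed level of these 12 markers was 176.0 to 1064.5 CPM in ISP mice, 145.0 to 355.4 CPM in Veh mice and 112.4 to 122.3 CPM in control mice, and none of the 12 was at 0 in every mouse of a group, while 2 were at 0 in at least 1 Veh mouse and 4 in at least 1 control mouse. Values without ISP 14 and ISP 18 are therefore also given for the members that differed, for the pathway genes called between ISP and control and for some other genes. Such fits keep only ISP 12 and ISP 16 of the ISP mice. For ISP with control they called 90 genes in place of 1547. A lost call therefore does not by itself place a difference in ISP 14 and ISP 18.

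The promoters of Bcl2, Mcl1 and Bok are printed because these were the 3 members with an unadjusted p below 0.05 between ISP and Veh. Each is the RefSeq window of 250 bases before to 50 bases after the annotated start (GRCm38.p6), written 5′ to 3′ on the gene's strand. Capitals mark the GC box, GGGCGG or its reverse complement CCGCCC, the core of the motif bound by Sp1-type factors. Bcl2 lies on the minus strand at chr1:106714241-106714540, Mcl1 on the plus strand at chr3:95658471-95658770 and Bok on the plus strand at chr1:93685325-93685624.
Bcl2: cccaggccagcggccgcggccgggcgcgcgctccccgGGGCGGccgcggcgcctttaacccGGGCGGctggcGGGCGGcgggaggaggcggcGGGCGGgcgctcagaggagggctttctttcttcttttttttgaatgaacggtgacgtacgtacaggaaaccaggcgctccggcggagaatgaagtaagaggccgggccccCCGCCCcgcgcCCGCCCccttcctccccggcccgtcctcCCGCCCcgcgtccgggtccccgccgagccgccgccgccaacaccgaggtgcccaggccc
Mcl1: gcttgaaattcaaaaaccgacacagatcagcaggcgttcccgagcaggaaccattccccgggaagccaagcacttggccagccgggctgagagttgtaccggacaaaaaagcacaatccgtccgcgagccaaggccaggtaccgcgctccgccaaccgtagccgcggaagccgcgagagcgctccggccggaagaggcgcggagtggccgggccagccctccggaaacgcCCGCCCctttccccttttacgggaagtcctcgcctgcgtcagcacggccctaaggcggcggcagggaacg
Bok: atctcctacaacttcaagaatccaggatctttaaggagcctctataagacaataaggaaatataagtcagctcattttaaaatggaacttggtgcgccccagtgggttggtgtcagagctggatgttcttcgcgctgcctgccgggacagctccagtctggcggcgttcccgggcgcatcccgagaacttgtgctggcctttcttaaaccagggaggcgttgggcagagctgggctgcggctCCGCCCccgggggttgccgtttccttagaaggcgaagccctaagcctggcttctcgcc

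The Bcl2 window held 7 GC boxes, and the Mcl1 and Bok windows held 1 each. The GC content of the Bcl2 window was 76.0%, with 44 CpG dinucleotides, against 65.7% and 33 for Mcl1 and 56.3% and 16 for Bok. Over all 32851 RefSeq windows of 300 bases, 35.7% held at least 1 GC box on either strand, the median GC content was 52.7%, and the median number of CpG dinucleotides was 7. Windows were found for all 10 members. Among those not printed, the Bbc3 windows held 5, 4 and 7 GC boxes, at 76.0%, 74.7% and 78.0% GC. The Bad windows held 4 and 0, the Bcl2l11 windows 3 and 3, and the Bax window 3. The Bcl2l2 window held 1, and the Bak1 and Bcl2l1 windows held 0. These letters describe the windows and do not show that a factor was bound.

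Scaled for the length of their exons, the members spanned a wide range of mRNA levels. Bcl2l2, which encodes the guardian BCL-w, was highest at 35.0 ± 2.39 CPM per kb (SD, n = 12 mice). Bok followed at 30.3 ± 6.81 CPM per kb, then Bcl2l1, which encodes BCL-XL, at 25.9 ± 2.21 CPM per kb. Bax, an effector that moves from cytosol to mitochondria, was at 22.0 ± 2.72 CPM per kb and the short-lived guardian Mcl1 at 20.8 ± 2.82 CPM per kb.

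The lower part of the order began with Bad, a BH3-only gene whose protein is held inactive by phosphorylation, at 11.3 ± 1.49 CPM per kb. Bak1, which encodes the effector resident in the mitochondrial membrane, was at 7.72 ± 1.16 CPM per kb. Bbc3, which encodes the p53-induced BH3-only protein PUMA, was at 4.10 ± 0.832 CPM per kb. Bcl2 itself came next to last at 2.40 ± 0.417 CPM per kb, above only Bcl2l11, which encodes BIM, at 0.633 ± 0.216 CPM per kb. Among neighbours in this order, the ranges over 12 mice were separate between Mcl1 and Bad, between Bak1 and Bbc3 and between Bcl2 and Bcl2l11, and they overlapped in the other neighbouring pairs. Bcl2l2 exceeded Bok in only 7 of 12 libraries, and Bax exceeded Mcl1 in 7 of 12. These levels assume the full annotated exon length of each gene (9157 bases for Bcl2, 8029 for Bcl2l11 and 1576 for Bax), which need not match the transcripts used in cortex.

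**Figure D1:**
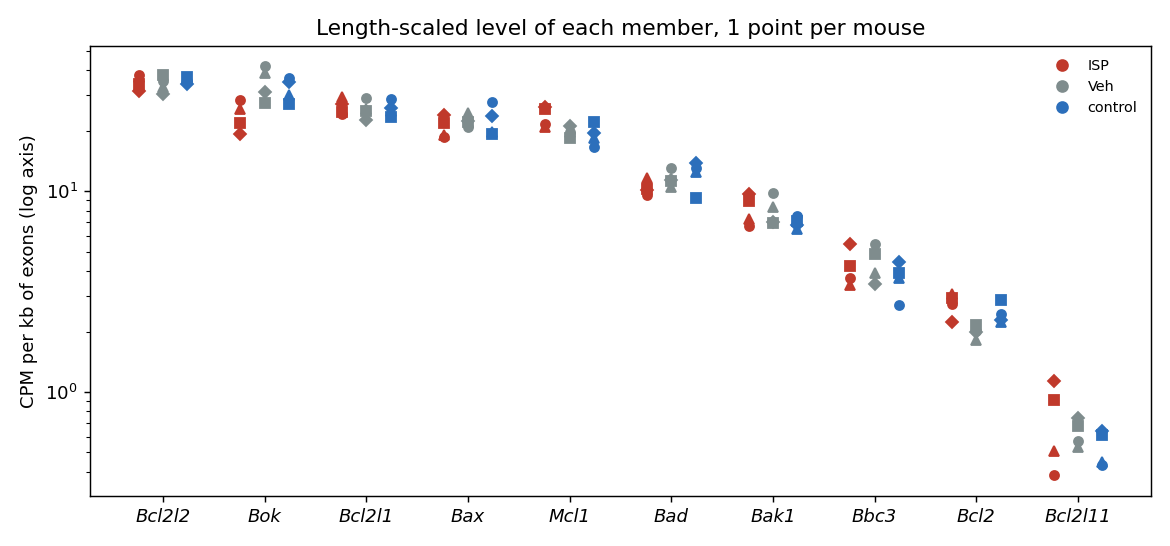
Length-scaled mRNA level of the 10 members (CPM per kb of exons, log axis), ordered by their mean over 12 mice, with 1 point per mouse and colours for ISP, Veh and control. Bcl2l2 is highest at 35.0 CPM per kb and Bcl2l11 lowest at 0.633 CPM per kb on average.

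The members also differed in how much they varied between mice. Bcl2l2 varied least, with its highest library 1.24 times its lowest, followed by Bcl2l1 at 1.29 times. Bcl2l11 varied most, at 2.96 times, and Bok and Bbc3 varied 2.18 and 2.02 times. Within groups, the coefficient of variation of Bcl2l11 was 47.5% in ISP mice, 15.6% in Veh mice and 20.2% in control mice.

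The first comparison asked how the family differed between ISP-treated and Veh-treated peri-infarct cortex. Among guardians, Bcl2 and Mcl1 were higher on average with ISP, Bcl2l1 and Bcl2l2 were close to Veh, and among effectors Bok was lower on average. None of the 10 members passed the edgeR quasi-likelihood test at an adjusted p below 0.1, and neither did any of the 15214 genes tested (0%). At an unadjusted p below 0.05 there were 3 members (2 higher, 1 lower), beside 15.3% of all genes tested. DESeq2, at an adjusted p below 0.1, called 2 members, Bcl2 and Bok, beside 2.45% of its tested genes (401 of 16363). Groups did not overlap for 1 member, Bcl2, beside 6.81% of genes tested. The median log2 fold change of the 10 members was 0.03, with 6 above 0 and 4 below, beside 0.02 over all genes tested.

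Bcl2, the founding guardian of the family, had 25.2, 27.0, 28.2 and 20.5 CPM in ISP 12, 14, 16 and 18, against 18.5, 19.8, 16.6 and 18.2 CPM in Veh 2, 6, 8 and 10. Every ISP mouse was above every Veh mouse, with ISP 18 only just above the highest Veh mouse. The means were 25.2 ± 3.40 CPM in ISP mice and 18.3 ± 1.33 CPM in Veh mice (SD, n = 4 each). The difference was 0.47 on the log2 scale (SE 0.12, a 1.38-fold higher level), with an adjusted p of 0.261 by edgeR and 0.0683 by DESeq2. With ISP 14 and ISP 18 left out it was 0.55, with an adjusted p of 0.623 by edgeR and 0.201 by DESeq2. With 1 library left out, DESeq2 called Bcl2 only without Veh 6 (adjusted p 0.0486), with adjusted p of 0.102 to 0.323 otherwise and none given without ISP 18. Over the edgeR and DESeq2 fits and all alternatives of the main fit, the log2 fold change of Bcl2 stayed between 0.36 and 0.55.

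Mcl1, whose protein turns over rapidly and restrains BAK and BIM, had 74.1, 87.0, 71.6 and 89.2 CPM in ISP 12, 14, 16 and 18, against 67.0, 62.8, 67.3 and 72.2 CPM in Veh 2, 6, 8 and 10. ISP 14 and ISP 18 were the highest of all 12 libraries, and ISP 16 lay below Veh 10. Mcl1 averaged 80.5 ± 8.90 CPM in ISP mice and 67.3 ± 3.84 CPM in Veh mice (SD, n = 4 each). The log2 fold change was 0.26 (SE 0.09), with an adjusted p of 0.271 by edgeR and 0.193 by DESeq2. It was 0.11 without ISP 14 and ISP 18, with an edgeR adjusted p of 0.737.

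The other guardians differed little. Bcl2l1 averaged 120.7 ± 10.7 CPM in ISP mice and 117.3 ± 12.2 CPM in Veh mice (SD, n = 4 each), a log2 difference of 0.04 with a 95% interval of -0.16 to 0.24. Bcl2l2 averaged 156.7 ± 12.5 CPM in ISP mice and 153.1 ± 14.1 CPM in Veh mice (SD, n = 4 each), a log2 difference of 0.03 with an interval of -0.16 to 0.22. The groups of both genes overlapped, and a p that misses the threshold does not show equal levels.

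Among effectors, Bok had the largest difference. Its protein can permeabilize membranes without the activation that BAX and BAK need, and part of it resides at the endoplasmic reticulum. Bok had 52.2, 40.4, 46.9 and 35.2 CPM in ISP 12, 14, 16 and 18, against 77.0, 50.4, 71.5 and 57.2 CPM in Veh 2, 6, 8 and 10. The lowest 3 libraries of all 12 were ISP mice, and ISP 12 overlapped with Veh 6. The means were 43.7 ± 7.41 CPM in ISP mice and 64.0 ± 12.3 CPM in Veh mice (SD, n = 4 each). The log2 fold change was -0.55 (SE 0.15, or 0.682 times the Veh level), with an adjusted p of 0.261 by edgeR and 0.0488 by DESeq2. Without ISP 14 and ISP 18 it was -0.37, with an adjusted p of 0.625 by edgeR and 0.579 by DESeq2. The DESeq2 call was also lost without ISP 14, ISP 18, Veh 2 or Veh 8, with adjusted p of 0.178, 0.116, 0.264 and 0.268.

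Bax and Bak1 differed less than Bok on average. Bax averaged 32.9 ± 3.92 CPM in ISP mice and 35.4 ± 2.43 CPM in Veh mice (SD, n = 4 each), a log2 difference of -0.11 with a 95% interval of -0.32 to 0.11. Bak1 averaged 19.6 ± 3.31 CPM in ISP mice and 19.3 ± 3.17 CPM in Veh mice (SD, n = 4 each), a log2 difference of 0.03 with an interval of -0.30 to 0.36. Without ISP 14 and ISP 18 all 3 effectors were below 0, with Bax at -0.25 and Bak1 at -0.19 beside -0.37 for Bok. Whether Bok differed from Bax or Bak1 in its response was not tested.

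No BH3-only gene passed the test, and all 3 had overlapping groups. Bad averaged 26.5 ± 2.25 CPM in ISP mice and 29.5 ± 2.78 CPM in Veh mice (SD, n = 4 each), and Bbc3 averaged 8.89 ± 1.91 CPM in ISP mice and 9.38 ± 1.96 CPM in Veh mice. Their log2 differences were -0.15 (95% interval -0.37 to 0.07) and -0.07 (-0.51 to 0.36). Bcl2l11, induced by FOXO factors and JNK signalling, had 3.09, 7.32, 4.10 and 9.16 CPM in ISP 12, 14, 16 and 18, against 4.57, 5.42, 4.26 and 5.99 CPM in Veh 2, 6, 8 and 10. The ISP mice fell on both sides of the Veh mice, with ISP 14 and ISP 18 above them and ISP 12 and ISP 16 below. The pooled log2 difference of Bcl2l11 was 0.23 (95% interval -0.47 to 0.93), and without ISP 14 and ISP 18 it was -0.49 with an edgeR adjusted p of 0.665.

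**Figure D2:**
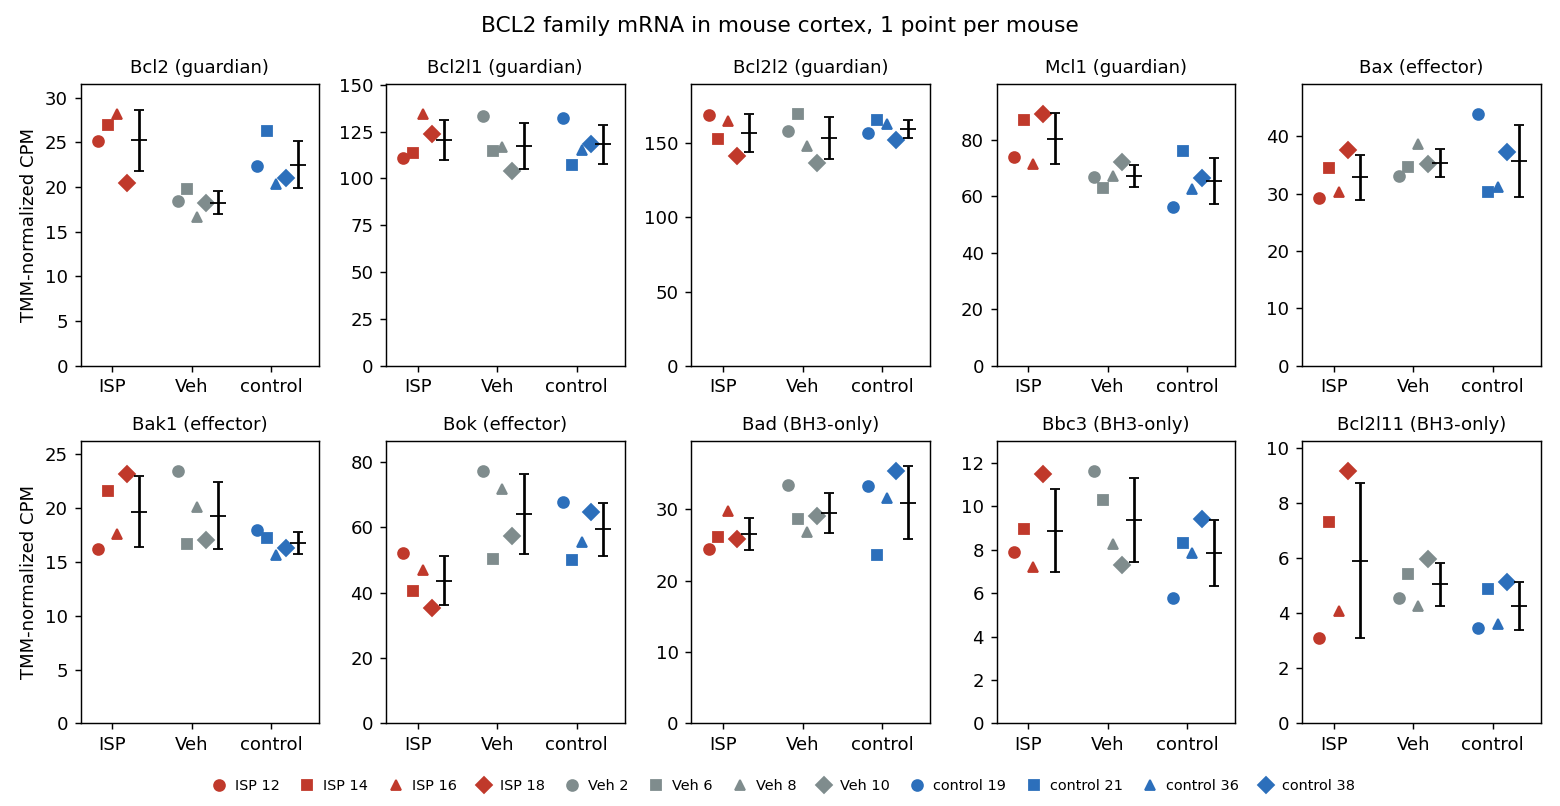
TMM-normalized CPM of the 10 members in each mouse (linear axes from 0), for ISP, Veh and control from left to right in each panel, with the group mean and SD in black (n = 4 mice). All ISP mice lie above all Veh mice for Bcl2, and Bcl2l11 is spread from 3.09 to 9.16 CPM among ISP mice.

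The second comparison, Veh with control, set vehicle-treated stroke cortex beside the mice labelled control. No member was called by edgeR at an adjusted p below 0.1, beside 2.23% of genes tested (337 of 15126), and DESeq2 also called 0 members, beside 6.48% (1109 of 17124). At an unadjusted p below 0.05 there was 1 member, Bcl2, beside 16.3% of genes tested, and Bcl2 was also the 1 member whose groups did not overlap, beside 9.67%. Bcl2 had 18.5, 19.8, 16.6 and 18.2 CPM in Veh 2, 6, 8 and 10, against 22.4, 26.3, 20.4 and 21.0 CPM in control 19, 21, 36 and 38. All Veh mice were below all control mice. The log2 fold change was -0.29 (SE 0.11), with an adjusted p of 0.200 by edgeR and 0.161 by DESeq2.

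The remaining guardians were within 0.05 of 0 on the log2 scale between Veh and control. Bak1, at 19.3 ± 3.17 CPM in Veh mice and 16.8 ± 1.05 CPM in control mice (SD, n = 4 each), had a log2 difference of 0.21 (95% interval -0.06 to 0.47). Bok had a log2 difference of 0.11 (-0.18 to 0.40) and Bax of 0.00 (-0.27 to 0.26). Bbc3, Bcl2l11 and Bad had 0.27 (-0.14 to 0.68), 0.26 (-0.20 to 0.71) and -0.07 (-0.34 to 0.21).

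The third comparison, ISP with control, held the only member called by edgeR. Bok fell to 43.7 ± 7.41 CPM in ISP mice, against 59.4 ± 8.09 CPM in control mice (SD, n = 4 each). Its log2 fold change was -0.45 (SE 0.13, or 0.732 times the control level), with an adjusted p of 0.0753 by edgeR and 0.0240 by DESeq2. The ISP mice had 52.2, 40.4, 46.9 and 35.2 CPM in ISP 12, 14, 16 and 18, against 67.6, 50.1, 55.3 and 64.5 CPM in control 19, 21, 36 and 38. Only ISP 12 and control 21 crossed. The edgeR call was lost without ISP 14, ISP 18, control 19, control 36 or control 38, with the log2 fold change between -0.55 and -0.36 over the 8 libraries left out in turn. Without ISP 14 and ISP 18 it was -0.26, with an edgeR adjusted p of 0.539.

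By edgeR, 1 of 10 members was thus called between ISP and control, beside 10.2% of genes tested (1547 of 15232), so that the members' share was close to the background. DESeq2 called 2 members, Bok and Mcl1, beside 13.7% (2308 of 16806). At an unadjusted p below 0.05 there were 2 members, Mcl1 and Bok, beside 22.3% of genes tested, and the groups overlapped for all 10 members, beside 11.9% of genes that did not overlap. Mcl1 averaged 80.5 ± 8.90 CPM in ISP mice and 65.3 ± 8.18 CPM in control mice (SD, n = 4 each), a log2 fold change of 0.30 (SE 0.11) with an adjusted p of 0.123 by edgeR and 0.0761 by DESeq2. Without ISP 14 and ISP 18 it was 0.16, with an edgeR adjusted p of 0.658. Control mice had 56.4, 75.9, 62.6 and 66.4 CPM of Mcl1, so that control 21 lay above ISP 12 and ISP 16.

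Bcl2 averaged 25.2 ± 3.40 CPM in ISP mice and 22.5 ± 2.67 CPM in control mice (SD, n = 4 each), with a log2 difference of 0.16 (95% interval -0.11 to 0.43). The Veh mice thus had the lowest Bcl2 level of the 3 groups, and ISP and control mice overlapped. ISP with Veh and Veh with control share the Veh mice, so these differences are not separate evidence. Bcl2l11 had a log2 difference of 0.48 (-0.22 to 1.17) between ISP and control, Bak1 of 0.23 (-0.06 to 0.51), Bad of -0.23 (-0.51 to 0.05) and Bbc3 of 0.19 (-0.25 to 0.62).

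**Figure D3:**
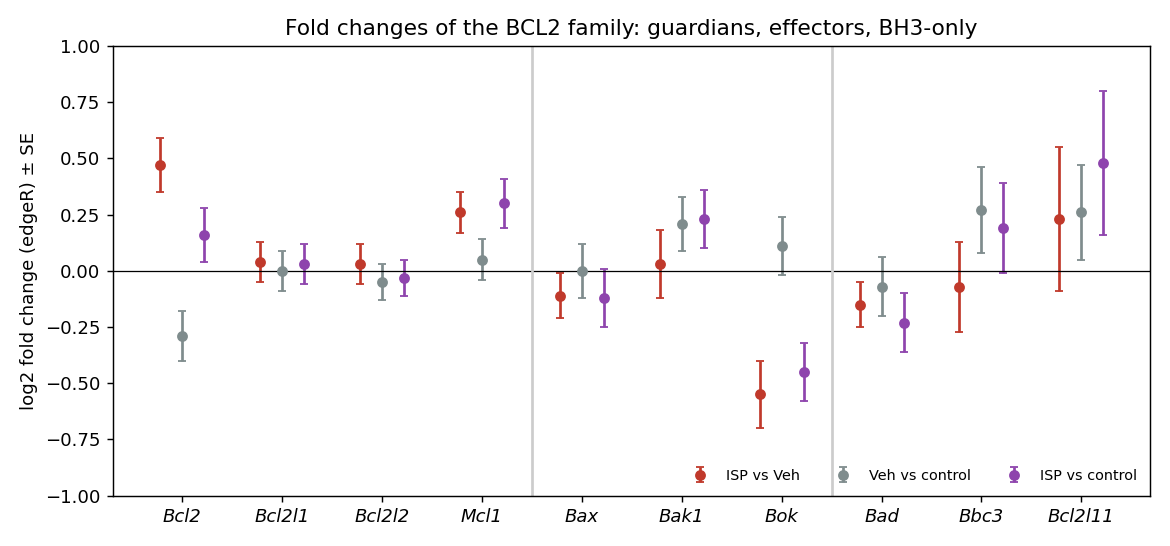
Log2 fold changes of the 10 members with their SE (edgeR), for ISP vs Veh, Veh vs control and ISP vs control, with vertical lines between guardians, effectors and BH3-only genes. Bcl2 is at 0.47 for ISP vs Veh and -0.29 for Veh vs control, and Bok is at -0.55 for ISP vs Veh and -0.45 for ISP vs control.

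The ratio of Bcl2 to Bax counts, which does not depend on library scaling, was 0.782 ± 0.170 in ISP mice, 0.519 ± 0.0654 in Veh mice and 0.649 ± 0.159 in control mice (SD, n = 4 each). It ranged from 0.545 to 0.936 in ISP mice and from 0.427 to 0.572 in Veh mice, so that these groups overlapped. The ratio of Bcl2l1 to Bax counts was 3.71 ± 0.558 in ISP mice, 3.33 ± 0.496 in Veh mice and 3.35 ± 0.316 in control mice. The ratio of Bcl2 to Bok counts was 0.584 ± 0.0771 in ISP mice, 0.296 ± 0.0758 in Veh mice and 0.387 ± 0.0939 in control mice, with ranges of 0.483 to 0.669 in ISP mice, 0.232 to 0.393 in Veh mice and 0.325 to 0.525 in control mice. The ratio of Mcl1 to Bok counts was 1.91 ± 0.526 in ISP mice, 1.08 ± 0.203 in Veh mice and 1.13 ± 0.286 in control mice, with ranges of 1.42 to 2.53 in ISP mice, 0.870 to 1.26 in Veh mice and 0.835 to 1.51 in control mice. For both ratios to Bok, every ISP mouse was above every Veh mouse, while ISP and control mice overlapped. Each of them divides a member already higher on average in ISP than in Veh mice by a member already lower. Their separation is therefore not evidence beyond the levels of the single genes. The ratio of Mcl1 to Bcl2l11 counts overlapped between ISP and Veh mice. All these ratios are given without a test, and how often ratios of other genes separate the groups was not counted.

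Microglial markers and part of the family had their extreme values in the same 2 mice. Of 12 microglial markers, all 12 had a log2 fold change above 0 for ISP with Veh, with a median of 0.88, and 8 had an unadjusted p below 0.05. Their summed level was 573.4 to 1850.7 CPM in ISP mice, 487.2 to 861.5 CPM in Veh mice and 369.3 to 464.3 CPM in control mice, and 0 of the 12 were at 0 counts in any library. The mean log2 level of this list was 1.42 and 1.27 above the mean of the 12 libraries in ISP 14 and ISP 18, against -0.02 and -0.10 in ISP 12 and ISP 16. Mcl1 and Bcl2l11 were highest, and Bok lowest, in these same 2 mice. The order did not hold throughout the other mice. Veh 10 had the highest microglial level of the Veh mice (0.47) and their highest Mcl1 (72.2 CPM). Its Bok (57.2 CPM) was nonetheless above that of Veh 6 (50.4 CPM), where the microglial level was -0.27. Control 21 had the lowest microglial level (-0.67) but the highest Mcl1 of the control mice (75.9 CPM). Bcl2 was at 27.0 CPM in ISP 14 and 20.5 CPM in ISP 18, and its log2 difference between ISP and Veh was 0.55 without these mice, beside 0.47 with them. The part of microglial content in the levels of Bcl2, Mcl1, Bcl2l11 and Bok was not tested.

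Markers of cortical layers and of oligodendrocytes differed on average as well. All 8 upper-layer neuron markers were below 0 for ISP with Veh (median log2 fold change -0.64, summed level 432.5 to 664.3 CPM in ISP mice and 481.6 to 979.6 CPM in Veh mice), and all 10 deep-layer markers were above 0 (median 0.53, 405.0 to 589.5 CPM in ISP mice and 213.8 to 533.7 CPM in Veh mice). All 9 oligodendrocyte markers were above 0 (median 0.75, 4986.2 to 11961.5 CPM in ISP mice and 2969.6 to 7394.3 CPM in Veh mice), as were 8 of 9 astrocyte markers (median 0.24, 4719.9 to 7307.5 CPM in ISP mice and 4218.6 to 5843.7 CPM in Veh mice). By edgeR, 0 markers of these lists were called for ISP with Veh, beside 0 of all genes tested, and the ranges of each list overlapped. DESeq2, which called Bcl2 and Bok, also called the upper-layer markers Wfs1 and Calb1 lower (adjusted p 0.0648 and 0.0948). It called the deep-layer marker Nr4a2 higher (adjusted p 0.0766) and no other marker of these lists. The deep-layer marker Fezf2 was at 0.00 after rounding. No marker in these lists was at 0 counts in any library. Their part in the levels of Bok and Bcl2 was not tested. Of 6 neutrophil markers, 0 passed the filter on low counts, and 2 of 10 lymphocyte markers did.

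**Figure D4:**
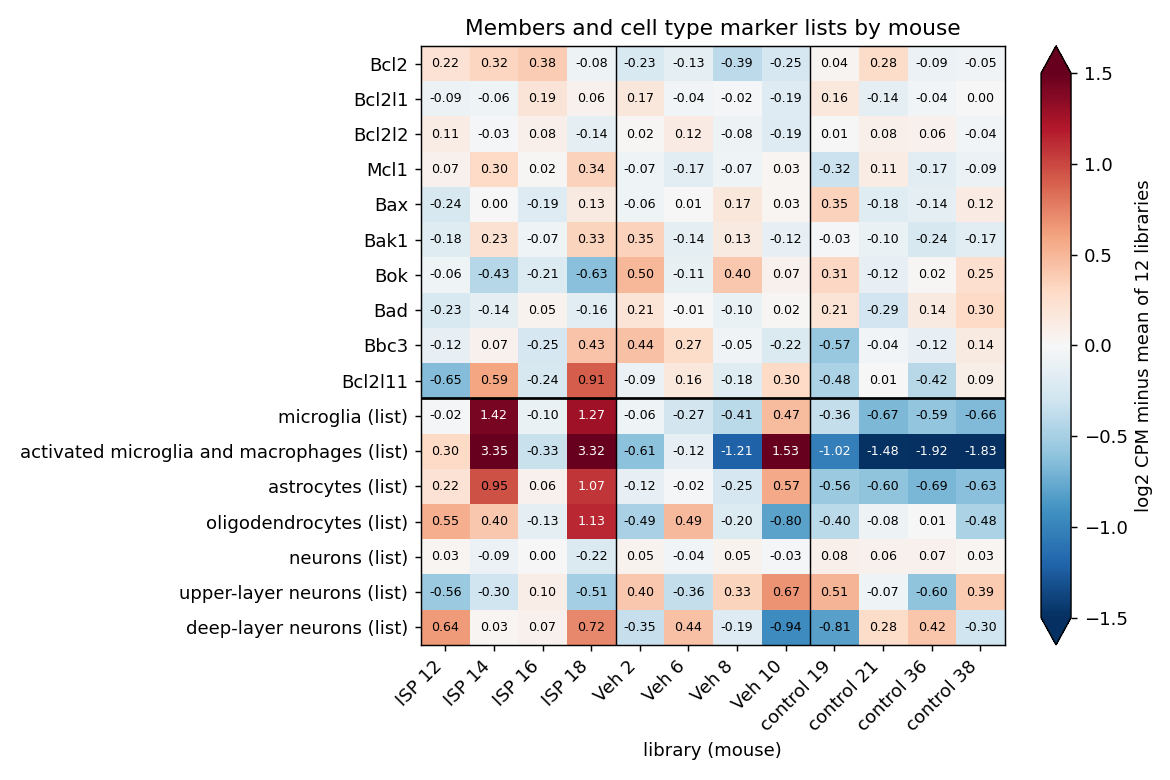
Log2 CPM minus the mean of the 12 libraries, for each member (top) and as the mean over each cell type marker list (bottom), with 1 column per mouse and the colour scale ending at -1.5 and 1.5. ISP 14 and ISP 18 have the highest levels of the microglial list (1.42 and 1.27), of Mcl1 (0.30 and 0.34) and of Bcl2l11 (0.59 and 0.91), and the lowest of Bok (-0.43 and -0.63).

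The base composition of the transcripts also moved with the fold changes of ISP with Veh. Bcl2, Bcl2l11 and Mcl1 had the lowest GC content of the members, at 46.3%, 48.0% and 48.7% of the longest transcript, while Bok, Bax and Bbc3 had the highest, at 61.0%, 63.5% and 65.2%. Over all genes tested, the median log2 fold change of ISP with Veh was 0.08 for 3711 genes under 45% GC and -0.15 for 718 genes at 60% or more. The medians of the same GC classes were -0.07 (3680 genes) and 0.05 (719 genes) for Veh with control, and -0.01 (3707 genes) and -0.12 (722 genes) for ISP with control. With per-library trends of GC content and transcript length removed, the ISP to Veh difference was 0.36 for Bcl2, 0.18 for Mcl1 and -0.37 for Bok, with edgeR adjusted p of 0.385, 0.470 and 0.421. For ISP with control, Bok was then at -0.39 with an adjusted p of 0.109, and the call was lost. Bax and Bbc3 took the opposite sign for ISP with Veh, at 0.12 and 0.13.

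**Figure D5:**
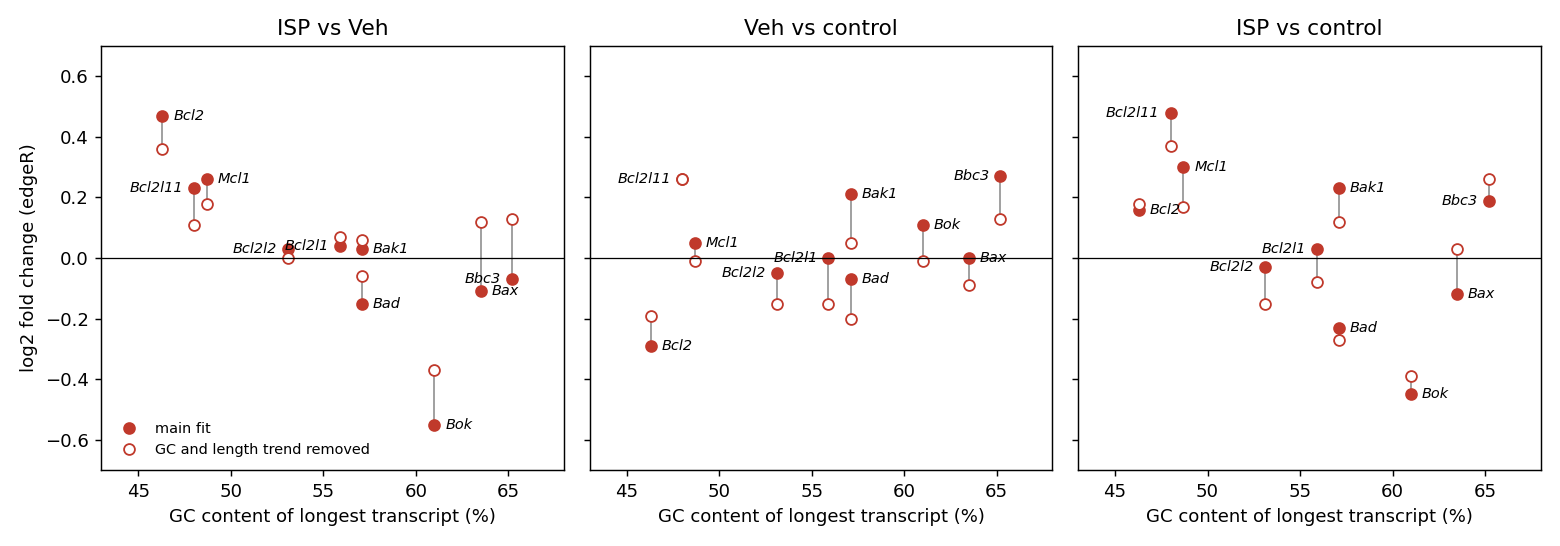
Log2 fold change of each member (edgeR) against the GC content of its longest transcript in percent, for the 3 comparisons, with filled points for the main fit and open points after removal of GC and length trends. For ISP vs Veh, Bcl2 at 46.3% GC moves to 0.36 and Bok at 61.0% GC moves to -0.37.

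Exons of some members overlap other annotated genes, and the library protocol in the labels names no strand marking, so that counts from the shared parts are uncertain. The shared share of exon length was 6.1% for Bcl2 with the antisense transcript D630008O14Rik, 20.5% for Bad with Gpr137 on the other strand and up to 18.2% for Bak1 with Ggnbp1 on the other strand. Bcl2l2 shared 13.3% with Gm20521 and Bax shared 12.2% with Gm45808, both on the same strand. Of these partners, Gpr137 and Ggnbp1 are genes of the count table, while D630008O14Rik, Gm20521 and Gm45808 are not. Bok, Mcl1, Bcl2l1, Bbc3 and Bcl2l11 had no such overlap.

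Other genes of the family outside the 10 members were measured as well. Of 15 such genes, 9 were tested for ISP with Veh, and all 9 had a log2 fold change above 0 (median 0.13) with 0 called. Bid was at 0.00 after rounding. Without ISP 14 and ISP 18, Bcl2a1b, Bid, Bcl2l12, Bmf and Hrk were below 0, at -1.45, -0.14, -0.11, -0.07 and -0.02. Bnip3l, Bnip3, Pmaip1 and Bcl2l13 stayed above 0. Hrk, a BH3-only gene best known from neurons, was called for Veh with control, at 32.6 CPM in Veh mice and 21.4 CPM in control mice (log2 fold change 0.61, edgeR adjusted p 0.0849). Without control 21, edgeR called 0 of all genes for Veh with control. This call, and those of Birc6, Itpr1, Usp9x and Zmat3 described below for Veh with control, were therefore lost without that library. For ISP with control, 3 of 10 tested were called, all higher, beside 10.2% of all genes tested. These were Bmf, a BH3-only gene, at 6.36 CPM in ISP mice and 2.66 CPM in control mice (1.26, adjusted p 0.0420), Hrk at 36.9 CPM in ISP mice and 21.4 CPM in control mice (0.78, adjusted p 0.0707), and the guardian Bcl2a1b (2.71, adjusted p 0.0676). Bcl2a1b belongs to a cluster of near-identical copies, so its counts are uncertain. For the same comparison, 11 of 12 microglial markers were called higher, and their part in these 3 genes was not tested. None of the 3 was called without ISP 14 and ISP 18, with Bmf at 0.63 (edgeR adjusted p 0.491), Hrk at 0.58 (0.196) and Bcl2a1b at 0.13 (0.966), beside 90 genes called in place of 1547.

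Downstream of the mitochondrion, 12 of 12 apoptosome and caspase genes were tested. For ISP with Veh 0 were called, the median log2 fold change was 0.05, and the smallest p-values belonged to Htra2 and Apaf1. Htra2, a mitochondrial protease that blocks inhibitor of apoptosis proteins, was at 24.3 CPM in ISP mice and 30.0 CPM in Veh mice (log2 fold change -0.30, adjusted p 0.275). Apaf1, the scaffold of the apoptosome, was at 6.17 CPM in ISP mice and 4.28 CPM in Veh mice (0.53, adjusted p 0.277). ISP and Veh mice did not overlap for either gene, beside 6.81% of all genes tested. Casp8, the initiator caspase of death receptors, was the 1 gene of this list called for ISP with control, at 4.03 CPM in ISP mice and 1.64 CPM in control mice (1.31, adjusted p 0.0785). It was at 0.45 without ISP 14 and ISP 18, with an edgeR adjusted p of 0.724. For Veh with control 0 genes of the list were called.

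Of 9 inhibitor of apoptosis genes, 7 were tested, with medians of 0.21 for ISP with Veh, 0.19 for Veh with control and 0.19 for ISP with control. Birc6, which encodes a giant ubiquitin ligase of this class, was called lower for Veh with control (-0.43, adjusted p 0.0854) and for ISP with control (-0.35, adjusted p 0.0682), and its GC and length adjusted values were -0.18 and -0.14. Its call for Veh with control was lost without control 21. Naip2 was called for ISP with control (2.28, adjusted p 0.0344), at 2.95 CPM in ISP mice and 0.605 CPM in control mice. Neither call for ISP with control held without ISP 14 and ISP 18, with Birc6 at -0.32 (edgeR adjusted p 0.429) and Naip2 at 1.04 (0.507). Naip5 had the smallest p for ISP with Veh (1.74, adjusted p 0.290), and it was at 0.04 without ISP 14 and ISP 18. The Naip genes are close copies, so their counts are uncertain.

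Among 16 genes for partners of BCL2 proteins, all 16 were tested and 0 were called for ISP with Veh, with Fbxw7, whose product marks MCL1 for degradation, at the smallest p (-0.21, adjusted p 0.288). For Veh with control 2 were called, both lower. These were Itpr1, the calcium release channel that BCL2 binds (-0.32, adjusted p 0.0849), and Usp9x, a deubiquitinase that stabilizes MCL1 (-0.52, adjusted p 0.0936). For ISP with control 3 were called lower, Itpr1 (-0.40, adjusted p 0.0441), Fbxw7 (-0.31, adjusted p 0.0594) and Usp9x (-0.49, adjusted p 0.0624). With GC and length trends removed, Itpr1 and Usp9x were at -0.19 and -0.22 for Veh with control, and Itpr1, Fbxw7 and Usp9x were at -0.32, -0.40 and -0.29 for ISP with control. None of these 3 was called for ISP with control without ISP 14 and ISP 18, with Itpr1 at -0.28 (edgeR adjusted p 0.333), Fbxw7 at -0.20 (0.482) and Usp9x at -0.47 (0.377).

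Of 13 genes of the p53 pathway, 12 were tested and 0 were called by edgeR for ISP with Veh. Gadd45a, a stress and growth arrest gene, had the smallest p, at 12.0 CPM in ISP mice and 5.67 CPM in Veh mice (1.08, adjusted p 0.261 by edgeR and 0.0253 by DESeq2). Its groups did not overlap, beside 6.81% of all genes tested. Zmat3, an RNA-binding target of p53, was called lower for Veh with control (-0.29, adjusted p 0.0945) and for ISP with control (-0.23, adjusted p 0.0964), with GC and length adjusted values of -0.19 and -0.21. Of 8 regulators upstream of BH3-only genes, 7 were tested for ISP with Veh and 8 in the other comparisons, and Jun, a component of AP-1, was the only one called, for ISP with control (0.71, adjusted p 0.0296), at 71.3 CPM in ISP mice and 43.8 CPM in control mice. Without ISP 14 and ISP 18, Jun and Zmat3 were at 0.47 and -0.16 for ISP with control, with edgeR adjusted p of 0.311 and 0.563, and Gadd45a was at 0.96 for ISP with Veh, with 0.623.

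The genes whose pattern over the 12 libraries lay closest to that of Bcl2 were B3galt1, Nkrf and Mfsd8, with mean absolute differences of 0.0762, 0.0801 and 0.0926 in centred log2 CPM. The median over 14462 genes was 0.267. For Bok, the closest were Itpka, Zfpm1 and Grasp, at 0.0712, 0.0753 and 0.0769, beside a median of 0.318. All 12 points share their libraries and scaling, so these values describe likeness in this set of mice only.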

How the data were processed

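RNA-seq counts of 12 mouse cortex libraries were analysed. The authors aligned reads to mm10 with HISAT2, counted them against GENCODE genes with HTSeq at default parameters and tested them with DESeq2; of these 3 tools, the version is not given in the sources used here. Per gene and library, the deposited table holds 1 raw count. The labels name no batch, and 18 within-group pairs differed by more than sampling noise (chi-square per degree of freedom 10.7 to 48.4).

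Each comparison was fitted on its own 8 libraries with edgeR 4.0.16 in R 4.3.3 (filterByExpr, TMM, glmQLFit, glmQLFTest), with Benjamini-Hochberg adjustment over all genes tested and calls at an adjusted p below 0.1. Intervals at 95% use the test's SE and degrees of freedom. CPM was TMM-scaled over 12 libraries. Alternatives were DESeq2 1.42.0, limma 3.58.1 voom with quality weights, DESeq2 size factors, no filter, at least 10 counts in every library, 1 fit of 12 libraries, a GC and length offset (loess span 0.3), an adjusted p of 0.05, and libraries left out. DESeq2 with libraries left out, and pathway genes without ISP 14 and ISP 18, were added after seeing the data. Each mouse was 1 replicate, and the fits were tested on simulated data. Coordinates and transcripts were from GENCODE M21, which held 24365 of the gene symbols, and 363 more matched by RefSeq synonym.

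The members and gene lists were chosen with earlier results of these data known. All 10 members were named in every comparison, with up to 3 genes per other list and comparison by smallest p, any gene called, and the 3 genes most like Bcl2 and Bok, predicted genes left out. Of the 30 sets of 4 values (10 members in 3 groups), 0 held an outlier by Dixon's test. Protein sequences were not used here, and a gene that the rule takes is not reported here.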

Additional observations from a re-analysis of the deposited data

How the results depend on the processing

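Over 30 member fold changes and 470 alternative values, 430 kept their direction and side of the threshold, 7 lost the threshold, 8 passed it and 25 reversed, with no cause tested. Reversals were all of values not called. A value of 0.00 after rounding, in the main fit or an alternative, has no direction and was not counted as reversed. For Veh with control, Bcl2l1 and Bax were at 0.00 in the main fit. Over the alternatives they ranged from -0.15 to 0.05 and from -0.09 to 0.11. Only Bok for ISP with control was called in the main fit, so most values had no call to lose. With the GC and length offset, Bax and Bbc3 were at 0.12 and 0.13 for ISP with Veh, Mcl1 and Bok both at -0.01 for Veh with control, and Bcl2l1 and Bax at -0.08 and 0.03 for ISP with control. Without ISP 14 and ISP 18, Bak1 and Bcl2l11 were at -0.19 and -0.49 for ISP with Veh, and Bcl2l2, Bbc3 and Bcl2l11 at 0.07, -0.05 and -0.24 for ISP with control. With 1 library left out, values ranged for ISP with Veh from -0.06 to 0.13 for Bak1, -0.02 to 0.11 for Bcl2l1, -0.23 to 0.04 for Bbc3, -0.06 to 0.44 for Bcl2l11 and -0.02 to 0.08 for Bcl2l2; for Veh with control from -0.02 to 0.13 for Mcl1; and for ISP with control from -0.03 to 0.08 for Bcl2l1 and -0.06 to 0.02 for Bcl2l2.

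Members called for ISP with Veh numbered 2 by DESeq2 and 0 in the other fits. By DESeq2 with 1 library left out, 0 to 2 members and 25 (without Veh 8) to 877 (without ISP 16) genes were called, and without ISP 14 and ISP 18, 0 members and 17 genes. Bcl2 was then called only without Veh 6 (adjusted p 0.0486), with no adjusted p given without ISP 18, and Bok without ISP 12, ISP 16, Veh 6 or Veh 10. For ISP with control, members called numbered 2 by DESeq2, by limma-voom and with all 12 libraries, 0 with the GC and length offset, 0 without ISP 14 and ISP 18, 0 at an adjusted p of 0.05, and 0 to 3 with 1 library left out (3 without control 21).

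Genes called for ISP with Veh numbered 401 by DESeq2 and 0 to 72 with 1 library left out (72 without Veh 6). For Veh with control they numbered 510 with no filter, 1109 by DESeq2, 28 with all 12 libraries, 18 at an adjusted p of 0.05, and 0 (without control 21) to 461 (without control 19) with 1 library left out. For ISP with control they numbered 90 without ISP 14 and ISP 18, 691 at an adjusted p of 0.05, and 420 (without ISP 14) to 2283 (without ISP 16) with 1 library left out. No paired analysis was possible because the groups share no replicate numbers. Bcl2l11 had the lowest counts of the members, at 60 to 270 per library.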
